A study of Mus musculus with 6 samples.

Results

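The AP-1 transcription factors were followed in mouse lens capsules and their attached lens epithelial cells after cataract surgery. The group comprises 10 genes chosen by symbol, Fos, Fosb, Fosl1, Fosl2, Jun, Junb, Jund, Atf3, Batf3 and Maff. All 10 were found, each as 1 of the 56940 genes listed in every library. Capsules taken 5 days after removal of the fiber cell mass (3 libraries) were compared with capsules taken at the time of that operation, 0 h (3 libraries). All mice were C57BL/6 wildtype, without a transgene or drug in the labels. Each library pooled 5 capsules. The 0 h capsule came from the second eye of a mouse whose first eye had been operated on 5 days before, so both groups came from operated animals. The labels do not give the age of the mice or say which pools share mice.

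AP-1 is a family of dimers built from basic leucine zipper proteins. Fos proteins cannot pair with each other and bind DNA with a Jun partner, whereas Jun proteins also pair among themselves. The complexes recognise the palindrome TGANTCA (N is any base) and drive genes of proliferation, matrix turnover and wound repair. Fos, Fosb, Jun, Junb, Atf3 and Maff are immediate early genes, whose short-lived transcripts appear within minutes of a growth factor, cytokine or injury signal. Fosl1 and Fosl2 encode the Fos-related antigens, which lack the strong activation domain of Fos and are usually induced later and for longer.

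Libraries held 6207387 to 8682659 gene counts at 5 days and 7709815 to 9774343 at 0 h. Log expression correlated at 0.965 to 0.973 among the 5 day libraries and 0.976 to 0.979 among the 0 h libraries. The eye field regulator Pax6 averaged 790.8 ± 55.4 CPM (read counts scaled to library size) at 5 days and 651.5 ± 36.6 CPM at 0 h (SD, n = 3 each). Of the 12 lens epithelial markers 10 fell and 1, Pax6, rose, against 22.5% and 25.1% of all tested genes (edgeR test given below). Among those that fell were the crystallin gene Cryaa (log2 fold change -2.48) and the matrix gene Npnt (-4.66). The summed level of the 12 was 15460 to 30010 CPM at 5 days and 93900 to 111100 CPM at 0 h. Most of it was Cryaa, Cryab and Col4a1, which averaged 11190, 3107 and 7276 CPM at 5 days and 62310, 19620 and 14970 CPM at 0 h. All 11 lens fiber markers measured fell, against 22.5% of all tested genes. Crybb2 was the highest in mean log CPM over the 6 libraries and Dnase2b the largest fall. The summed level of the 11 was 4390 to 14950 CPM at 5 days and 73050 to 83230 CPM at 0 h. Dnase2b lay under the minimum of the low-count filter in all 5 day libraries and could not have come out higher. The other 10 fell. Leukocyte markers rose for 18 of the 19 tested of 26 listed, against 25.1% of all tested genes. Of the 19, 8 lay under the minimum of the low-count filter in all 0 h libraries and could not have come out lower. Of the other 11, 10 rose and 0 fell. The summed level of the 26 leukocyte markers was 624.5 to 884.2 CPM at 5 days and 28.2 to 54.61 CPM at 0 h. The T cell marker Cd3e, the B cell marker Cd79a and the neutrophil marker Ly6g had no counts at either time. S100a8 and S100a9, which neutrophils and monocytes express, had 11, 2 and 16 and 22, 10 and 19 counts at 5 days and 0 in each 0 h library. The macrophage lysozyme gene Lyz2 had the highest mean log CPM of them over the 6 libraries, at 241.8 ± 46.7 CPM at 5 days and 5.56 ± 3.98 CPM at 0 h (SD, n = 3 each), and the monocyte receptor gene Ccr2 had 337 counts over the 5 day libraries and 0 over those of 0 h. The part of these cells in the AP-1 results was not tested. In such bulk samples, fewer cells of a type and less RNA per cell cannot be told apart.

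Of the 9 AP-1 genes tested, 8 rose at 5 days and 0 fell. Fosl1 lay under the minimum of the low-count filter in all 0 h libraries and could hardly have come out lower. Of the other 8 genes 7 rose and 0 fell. The member counts and the median below include Fosl1. The test was the quasi-likelihood test of edgeR, with p-values adjusted by Benjamini-Hochberg over all 14676 genes tested and a threshold of 0.05. Of all tested genes 47.6% were called, 25.1% higher and 22.5% lower. At an unadjusted p under 0.05 the edgeR count of AP-1 genes that fell was also 0, and DESeq2 and limma-voom each gave 0. Leaving out replicate 3 at 5 days or replicate 1 at 0 h left 6 members called higher in each case, without Fosb and Atf3. Fosl1, Junb, Fosb, Fos, Fosl2, Maff and Jun rose at least 2-fold, which is 7 of 9 against 14.5% of all tested genes. Without replicate 3 at 5 days 4 of the 9 did, Fos, Fosl1, Fosl2 and Junb. The libraries of 5 days all lay above those of 0 h for 7 of the 9, against 29.9% of all tested genes. The median log2 fold change of the 9 was 1.77, beside -0.01 over all tested genes. Jund was not called, and Batf3 had too few counts to be tested.

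**Figure D1:**
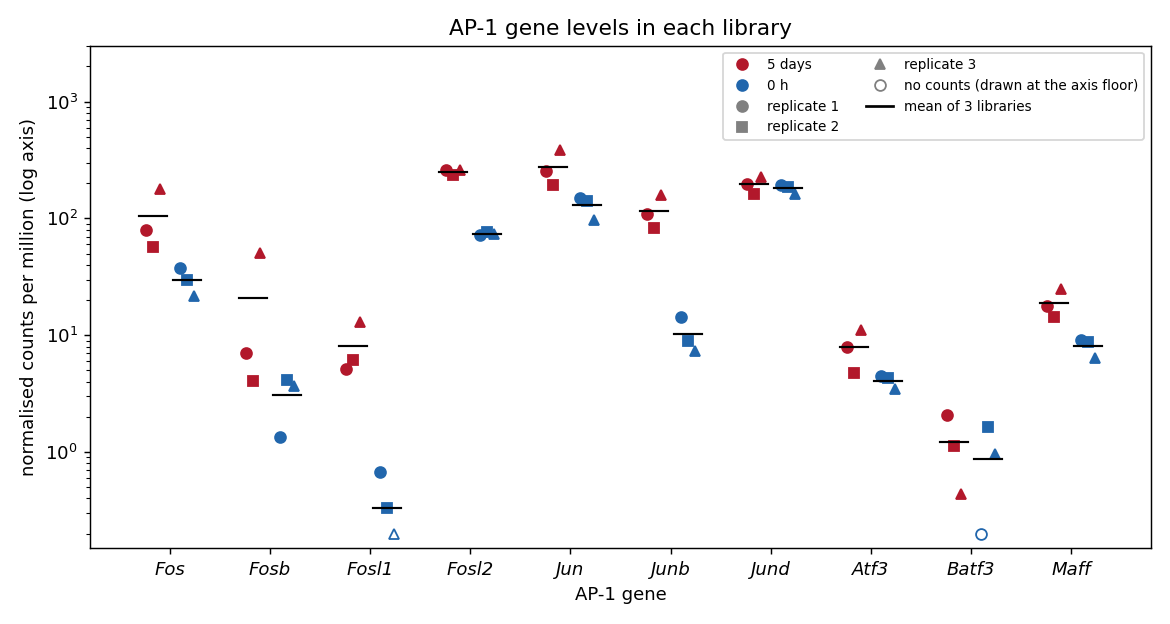
CPM on a log axis for the 10 AP-1 genes in each library, 5 days in red left of 0 h in blue. Marker shapes give the replicate, black lines the mean of 3 libraries, and open markers libraries without counts. Replicate 3 at 5 days is the topmost 5 day library for 8 of the genes, while the Fosl2 libraries lie close together at each time.

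Several member promoters carry letters of the cAMP response element, a sequence bound by CREB and ATF proteins. RefSeq promoter windows (GRCm38.p6, 250 bases before to 50 after the start site) were on hand for 9 of the 10 members, 11 windows in all. Those of Fos, Fosl2, Jun and Maff are shown because these genes bear on the order of levels and on the spread among libraries described below. Capitals mark TGACG, the core of the cAMP response element, the complete element TGACGTCA, or TGACATCA, the variant known from the Jun promoter.
Fos (chr12:85473640-85473939, plus strand): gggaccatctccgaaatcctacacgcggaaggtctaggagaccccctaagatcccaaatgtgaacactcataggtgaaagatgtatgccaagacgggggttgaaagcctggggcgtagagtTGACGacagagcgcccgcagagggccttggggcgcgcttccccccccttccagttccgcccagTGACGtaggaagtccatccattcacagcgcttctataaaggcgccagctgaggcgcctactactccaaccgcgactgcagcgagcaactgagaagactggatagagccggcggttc
Fosl2 (chr5:32136222-32136521, plus strand): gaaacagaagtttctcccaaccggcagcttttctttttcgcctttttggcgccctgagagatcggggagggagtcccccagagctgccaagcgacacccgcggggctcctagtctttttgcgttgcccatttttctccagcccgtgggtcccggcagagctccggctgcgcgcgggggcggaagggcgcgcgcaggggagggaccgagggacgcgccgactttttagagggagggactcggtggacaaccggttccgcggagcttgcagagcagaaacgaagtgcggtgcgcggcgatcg
Jun (chr4:95052173-95052472, minus strand): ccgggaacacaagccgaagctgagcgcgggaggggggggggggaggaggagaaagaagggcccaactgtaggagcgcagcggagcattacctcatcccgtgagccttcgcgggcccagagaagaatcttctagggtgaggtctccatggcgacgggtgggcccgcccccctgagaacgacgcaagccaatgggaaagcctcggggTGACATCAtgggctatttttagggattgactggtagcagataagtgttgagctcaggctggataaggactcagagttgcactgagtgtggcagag
Maff, window 2 of 3 (chr15:79347270-79347569, plus strand): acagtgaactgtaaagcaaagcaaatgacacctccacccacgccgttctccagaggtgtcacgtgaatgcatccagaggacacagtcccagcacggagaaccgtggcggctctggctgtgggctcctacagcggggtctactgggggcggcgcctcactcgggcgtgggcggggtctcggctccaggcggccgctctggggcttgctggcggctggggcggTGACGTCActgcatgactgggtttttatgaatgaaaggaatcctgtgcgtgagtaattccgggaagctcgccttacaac
The AP-1 palindrome TGANTCA, searched on both strands, was in 0 of the 11 windows and in 7.81% of all 32851 promoter windows. The complete element TGACGTCA was in 1 member window, that of Maff, starting 29 bases before the start site, and in 1.79% of all windows. A CArG box, the serum response factor motif, was in 0 member windows and in 1.63% of all. Sites more than 250 bases upstream lay outside the windows, so these counts do not show whether a member has such a site there. The Jund window, ending at base 70697788 of chromosome 8, lay before the gene start in GENCODE M21 (70698949). TGACATCA began at 45 bases before the start site of Jun, and at the same distance in another Maff window (3.62% of all windows hold it). TGACG, which lies within TGACGTCA, occurred in the windows of Fos, Fosb, Junb, Atf3 and Maff and in 20.8% of all windows. The letters TGACG and TGACATCA were chosen after the windows had been read, and a match describes sequence alone.

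Fos (ENSMUSG00000021250, chromosome 12), the founding member and strongest activator of its family, stood at 79.2, 57.4 and 178.5 CPM in the 3 libraries of 5 days, and at 37.9, 29.7 and 21.8 CPM in those of 0 h. The groups did not overlap, and replicate 3 at 5 days was 2.61-fold above the mean of the other two libraries. Fos rose by a log2 fold change of 1.83 (SE 0.35, adjusted p = 0.000949 by edgeR). Without replicate 3 at 5 days the log2 fold change was 1.18.

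Fosl2 (ENSMUSG00000029135, chromosome 5), the Fos-related antigen Fra-2, rose by much the same factor with far less spread. It stood at 259.2, 237.5 and 257.7 CPM at 5 days, and at 71.8, 76.0 and 73.3 CPM at 0 h. The highest library exceeded the lowest 1.09-fold at 5 days and 1.06-fold at 0 h. The log2 fold change was 1.77 (SE 0.09, adjusted p = 3.05e-08 by edgeR), and it stayed between 1.74 and 1.82 when single libraries were left out.

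Fosl1 (ENSMUSG00000024912, chromosome 19), which encodes Fra-1, a member tied to migrating and invading epithelial cells, was nearly silent at 0 h. It had 32, 49 and 118 counts at 5 days (5.09, 6.15 and 12.9 CPM), and 5, 3 and 0 counts at 0 h. This was the largest fold change among the tested AP-1 genes, 24.1-fold (log2 4.59, SE 0.66, adjusted p = 0.000108 by edgeR). With 8 counts in all at 0 h, Fosl1 was kept by the low-count filter through the libraries of 5 days and could hardly have come out lower. Its log2 fold change was 5.45 without replicate 1 at 0 h, which held 5 of the 8 counts. Fosl1 shares 1163 exon bases with Ccdc85b, a protein-coding gene on the opposite strand. Ccdc85b had 182, 234 and 319 counts at 5 days and 230, 314 and 254 at 0 h, and its ranges overlapped. Jun, Junb and Jund also overlap genes on the opposite strand, and the strand setting of the counting is unknown. Junb shares 173 exon bases with the protein-coding gene Prdx2. Prdx2 had 735, 858 and 1045 counts at 5 days and 696, 1043 and 902 at 0 h. Junb itself had 685, 658 and 1445 counts at 5 days and 106, 82 and 62 at 0 h. The effect of this overlap on Junb was not tested.

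Fosb (ENSMUSG00000003545, chromosome 7), a Fos paralog whose truncated splice form persists long after a stimulus in neurons, was carried by 1 library. It stood at 7.00, 4.02 and 51.0 CPM at 5 days, and at 1.35, 4.17 and 3.70 CPM at 0 h. The groups overlapped, since replicate 2 at 5 days lay below replicate 2 at 0 h. Fosb passed the test with a log2 fold change of 2.75 (SE 0.80, adjusted p = 0.0135 by edgeR). Without replicate 3 at 5 days the log2 fold change was 0.80 with an adjusted p of 0.173 by edgeR, and the call was also lost without replicate 1 at 0 h (adjusted p = 0.0618) and with limma-voom (adjusted p = 0.122).

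Among the Jun genes, Junb (ENSMUSG00000052837, chromosome 8), a weaker activator that can restrain Jun, rose most. It stood at 109, 82.6 and 158.2 CPM at 5 days, and at 14.3, 8.997 and 7.39 CPM at 0 h. Even the lowest library of 5 days was several-fold above the highest of 0 h. The change was 11.5-fold (log2 3.53, SE 0.26, adjusted p = 5.39e-07 by edgeR), and the log2 value was 3.23 without replicate 3 at 5 days.

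Jun (ENSMUSG00000052684, chromosome 4), the partner of most Fos proteins and the target of the JNK kinases, rose less. It stood at 252.7, 194.6 and 385.7 CPM at 5 days, and at 148.8, 142.3 and 97.3 CPM at 0 h. The groups did not overlap, and the log2 fold change was 1.10 (SE 0.22, adjusted p = 0.00142 by edgeR), or 0.78 without replicate 3 at 5 days. The antisense gene Junos, with 232 exon bases in common, had 24, 23 and 54 counts at 5 days and 20, 17 and 9 at 0 h, few beside the 1550 to 3523 counts of Jun at 5 days.

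Jund (ENSMUSG00000071076, chromosome 8), the constitutively expressed member, which slows growth in fibroblasts, stood at 198, 162.2 and 227.7 CPM at 5 days, and at 194.4, 187.4 and 163.2 CPM at 0 h. These ranges overlapped. Its log2 fold change was 0.11 (SE 0.13, adjusted p = 0.508 by edgeR), and -0.03 without replicate 3 at 5 days, so neither direction was shown.

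Atf3 (ENSMUSG00000026628, chromosome 1), a stress-induced repressor that pairs with Jun proteins, was low at both times. It stood at 7.96, 4.77 and 11.1 CPM at 5 days, and at 4.45, 4.28 and 3.46 CPM at 0 h. The groups were separated by a narrow gap. The log2 fold change of 0.97 (SE 0.34) passed with an adjusted p of 0.0322 by edgeR, and the call held only without replicate 2 at 5 days when single libraries were left out, with an adjusted p of 0.0597 to 0.176 in the other cases. Limma-voom gave an adjusted p of 0.0536.

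Maff (ENSMUSG00000042622, chromosome 15), a small Maf protein without an activation domain of its own, stood at 17.8, 14.3 and 24.8 CPM at 5 days, and at 9.16, 8.67 and 6.44 CPM at 0 h. The groups did not overlap, and the log2 fold change was 1.23 (SE 0.24, adjusted p = 0.00107 by edgeR), or 0.97 without replicate 3 at 5 days.

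Batf3 (ENSMUSG00000026630, chromosome 1), needed for cross-presenting dendritic cells, had 13, 9 and 4 counts at 5 days and 0, 15 and 8 at 0 h. These values overlapped, and the gene did not pass the low-count filter. Of the dendritic cell markers, the lineage receptor Xcr1 had no counts in the 6 libraries. Clec9a stood at 0 to 0.657 CPM at 5 days and 0 to 0.439 CPM at 0 h. Zbtb46 averaged 5.30 CPM at 5 days and 4.95 CPM at 0 h and was not called. Flt3 rose (log2 fold change 3.61, adjusted p = 0.00423 by edgeR), and so did Itgax, which macrophages also express, at 30.2 ± 7.15 CPM at 5 days and 0.135 ± 0.233 CPM at 0 h (SD, n = 3 each).

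**Figure D2:**
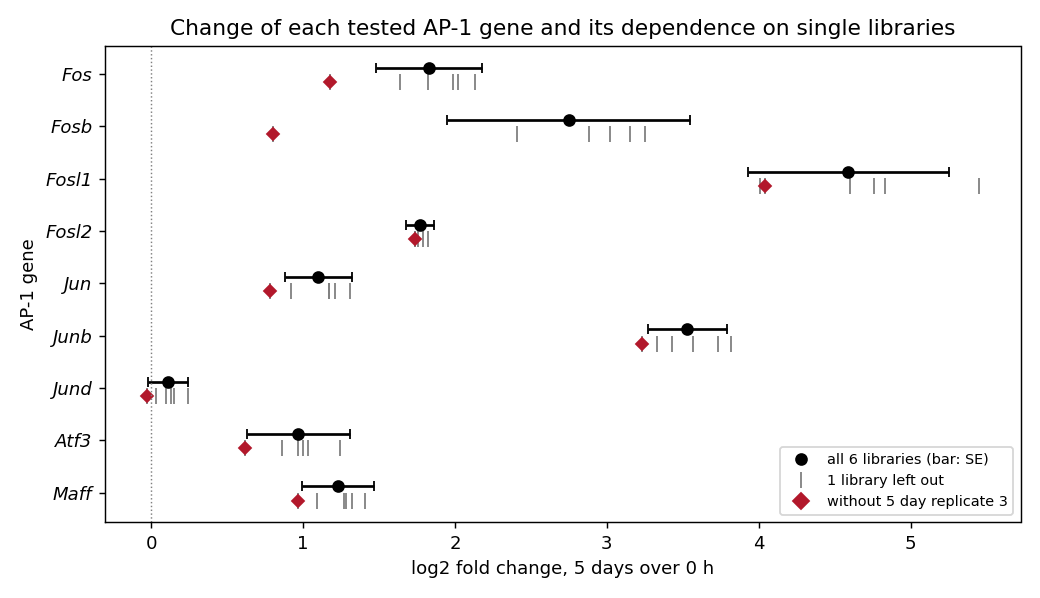
Log2 fold change of 5 days over 0 h for the 9 tested AP-1 genes. Black points and bars are the fit to all 6 libraries with its standard error, grey ticks the fits with 1 library left out, and red diamonds the fit without replicate 3 at 5 days. Fosb moves to 0.80 without that library, and Fosl2 stays between 1.74 and 1.82.

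To compare levels between genes, CPM were divided by the exon length of each gene in GENCODE M21, from 1597 bases for Batf3 to 9680 for Fosl2. On this scale Jund was the highest of the 10 at both times, at 117.5 ± 19.7 CPM per kb at 5 days and 108.9 ± 9.80 CPM per kb at 0 h (SD, n = 3 each). The order at 5 days went on with Jun (87.1), Junb (50.7), Fos (44.7), Fosl2 (26.0), Maff (7.31), Fosl1 (3.96), Atf3 (3.68), Fosb (3.31) and Batf3 (0.759 CPM per kb). At 0 h it was Jun (40.6), Fos (12.7), Fosl2 (7.62), Junb (4.44), Maff (3.12), Atf3 (1.89), Batf3 (0.543), Fosb (0.492) and Fosl1 (0.164 CPM per kb). Each of the neighbours at 5 days had overlapping ranges except Fosl2 and Maff. At 0 h only the neighbours Junb and Maff, Batf3 and Fosb, and Fosb and Fosl1 overlapped. By exon length Junb was above Fosl2 in 3 of 3 libraries at 5 days and in 0 of 3 at 0 h, whereas by raw counts or coding length it was above Fosl2 in 0 of 3 at either time.

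Within the Jun family, Jund made up 48.4, 50.1 and 41.9% of the counts per length at 5 days, against 68.8, 69.8 and 74.4% at 0 h. Junb made up 19.6 ± 1.32% at 5 days and 2.85 ± 0.708% at 0 h (SD, n = 3 each). Jun made up 33.6 ± 3.04% at 5 days and 26.2 ± 2.58% at 0 h (SD, n = 3 each). These 3 shares did not overlap between the times. The exact permutation test (two-sided) gave p = 0.1 for each, its lower limit with 3 libraries a side. A share does not depend on how the libraries were scaled. The summed Jun family level was 245.3, 194.2 and 326.3 CPM per kb at 5 days and 169.4, 160.9 and 131.6 at 0 h. Jund led in each library at both times by exon length, whereas by coding length or raw counts Jun led in the 3 libraries of 5 days.

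Within the Fos family the mix was less settled. Fos made up 52.6, 46.4 and 64.8% at 5 days, against 66.9, 59.3 and 53.2% at 0 h. Fosl2 made up 41.8, 46.6 and 22.8% at 5 days, against 30.8, 36.8 and 43.4% at 0 h. Both shares overlapped between the times, with an exact permutation p of 0.4 for Fos and 1 for Fosl2. Fosl1 made up 5.03 ± 0.986% at 5 days and 0.712 ± 0.690% at 0 h (SD, n = 3 each), without overlap (exact permutation p = 0.1). Fosb made up 1.75, 1.22 and 6.98% at 5 days, against 0.897, 3.13 and 3.39% at 0 h (exact permutation p = 0.8). The summed Fos family level was 64.1, 52.6 and 117 CPM per kb at 5 days and 24.1, 21.3 and 17.4 at 0 h. These sums were below those of the Jun family in each library. Which Fos gene led depended on the length used. By exon length Fos led on average at both times (54.6% at 5 days, 59.8% at 0 h), but Fosl2 led by coding length (70.0% and 72.0%) and by raw counts (67.8% and 69.2%). Coding length leaves out most of the long Fosl2 exons, over which reads were also counted. Exon length, 9680 bases for Fosl2, joins the exons of all its transcripts and exceeds its longest coding transcript (6537 bases). By the latter length, chosen after seeing the data, Fos led on average, with 48.2% at 5 days and 52.9% at 0 h. Fosl2 then held 43.1% and 43.3%, and Fos led in 1 of 3 libraries at 5 days and 2 of 3 at 0 h.

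**Figure D3:**
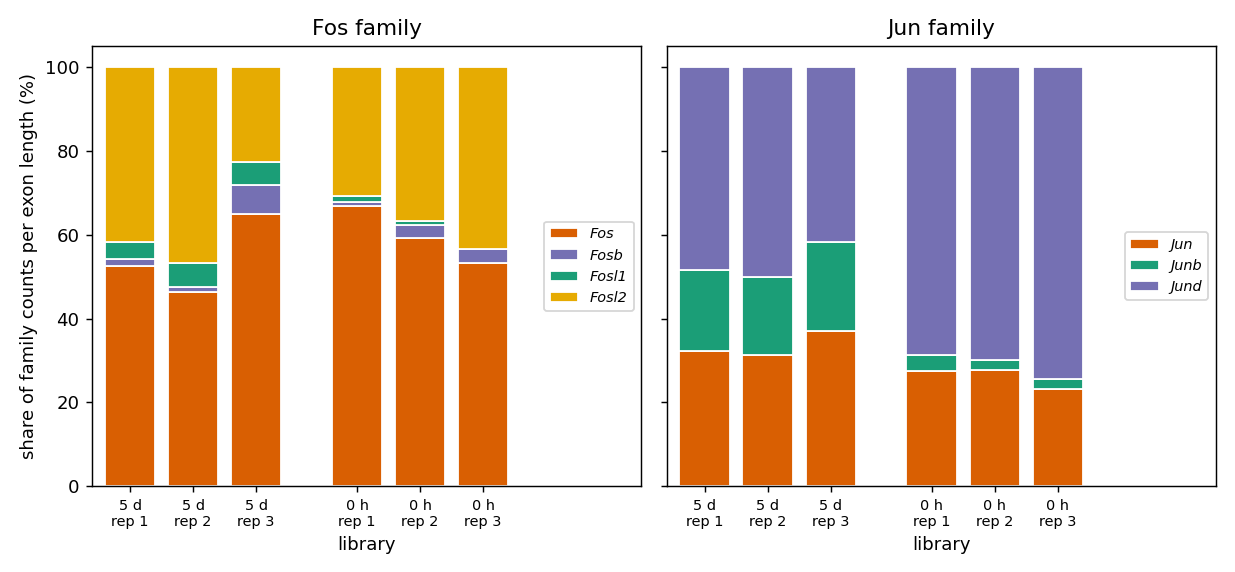
Share of each member in the counts per exon length of its family, in percent, for each library (5 days left, 0 h right). Jund takes 41.9 to 50.1% of the Jun family at 5 days and 68.8 to 74.4% at 0 h, and Fosl2 reaches the share of Fos only in replicate 2 at 5 days (46.6 against 46.4%).

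The spread among libraries of 1 time was shared by many members. At 5 days replicate 3 was the highest library for 8 of the 9 tested members, Fosl2 being the exception, against 35% of all tested genes. Its excess over the mean of the other two libraries was 9.26-fold for Fosb, 2.61-fold for Fos and 2.30-fold for Fosl1, 3 of 9 members past 2-fold against 3.56% of all tested genes. For Atf3, Jun, Junb, Maff and Jund it was 1.74, 1.72, 1.65, 1.54 and 1.26-fold. The library name of this replicate, unlike the others, gives neither the time nor a replicate. At 0 h replicate 1 was the highest for 7 of the 9 (32.5% of all tested genes) and replicate 3 the lowest for 7 (29.2%). Markers of other eye tissues (retina, pigment cells, vessels, muscle and cornea) moved with replicate 3 at 5 days, with a median ratio to the other two of 1.92 over 17 tested. Their summed levels were 226.9, 209 and 335.7 CPM at 5 days and 714.9 to 986 CPM at 0 h, with Rpe65 at 0 at 5 days and Krt12 at 0 at 0 h. Of these sums Pdgfrb alone held 141.2, 135.2 and 153.7 CPM at 5 days and 215.6 to 225.1 CPM at 0 h. Of these 17 genes 4 rose and 9 fell, against 25.1% and 22.5% of all tested genes. Those that rose were the endothelial genes Pecam1 (most) and Cdh5 and the muscle genes Myh11 and Des. The 9 that fell were 8 genes of photoreceptors and their supporting cells, Rpe65 most, and Pdgfrb. Pdgfrb had the highest mean log CPM of those called over the 6 libraries. Pecam1, Cdh5 and Des lay under the minimum of the low-count filter in all 0 h libraries and could not have come out lower. Opn1sw and Rpe65 lay under it in all 5 day libraries and could not have come out higher. Of the other 12 genes 1 rose and 7 fell. Keratin genes of the surface epithelium, which were not tested, stood apart further in replicate 3. Krt14 was at 0.318, 0.251 and 45.8 CPM at 5 days and 0 to 0.119 CPM at 0 h. Krt5 was at 0.159, 0.251 and 19.9 CPM at 5 days and 0 to 0.239 CPM at 0 h, and Krt6a at 0, 0.126 and 9.53 CPM at 5 days and 0 to 0.549 CPM at 0 h. Lens epithelial markers had a median ratio of 0.672, lens fiber markers of 0.457 and leukocyte markers of 0.894 in the same comparison. Over all tested genes the median ratio was 0.989. The part of these cells in the spread of the AP-1 genes was not tested.

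Other immediate early genes were read from a list of 33, of which 29 were tested. Of these 24 rose and 1 fell (median log2 fold change 1.79), beside 25.1% and 22.5% of all tested genes. Among those that rose, 3 had passed the low-count filter through the 5 day libraries alone. Replicate 3 was again the highest at 5 days for 26 of the 29. The matricellular gene Ccn2 stood at 740.9 ± 62.7 CPM at 5 days and 275.7 ± 4.64 CPM at 0 h (SD, n = 3 each). The zinc finger factor gene Egr3 had 297 counts over the 5 day libraries and 3 over those of 0 h, a 105.6-fold difference (95% exact counting interval 35.8 to 514.7), and all 3 counts lay in replicate 1 at 0 h. Its fitted log2 fold change of 6.51 moved between 5.91 and 9.67 with single libraries of 0 h left out, the higher value being a fit against libraries without counts. The antiproliferative gene Btg2 was the one that fell, by 0.89 on the log2 scale (SE 0.15). Nr4a1, Klf4, Gadd45b and Hes1 were not called.

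The other basic leucine zipper genes, possible dimer partners or rivals, went both ways. Of 25 tested of 30 listed, 12 rose and 4 fell (median log2 fold change 0.17), beside 25.1% and 22.5% of all tested genes. Cebpa passed the low-count filter through the 5 day libraries alone, and of the other 24 genes 11 rose and 4 fell. Jdp2, a repressor that pairs with Jun proteins, fell to 26.5 ± 0.456 CPM at 5 days, against 53.9 ± 1.30 CPM at 0 h (SD, n = 3 each). Maf, the large Maf factor that drives crystallin genes in the lens, fell by 1.17 on the log2 scale. Nrl, a photoreceptor factor, fell by 3.01, beside the fall of the photoreceptor genes given above. Bach1, a repressor that pairs with small Maf proteins such as the Maff product, rose by a log2 fold change of 1.87 (SE 0.17). The injury-linked Cebpb and Cebpd rose by 3.00 and 3.05, and the relative Creb5 by 1.52. Cebpa, which is also a myeloid factor, rose by 6.01, with 386 counts over the 5 day libraries and 6 over those of 0 h, and by 5.39 to 6.91 when single libraries of 0 h were left out. Atf2 and Atf7, the classical partners of Jun at cAMP response elements, were not called.

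Upstream of AP-1, 12 of 30 tested kinases and factors rose and 5 fell (median log2 fold change 0.23), beside 25.1% and 22.5% of all tested genes. Mapk11 passed the low-count filter through the 5 day libraries alone, and of the other 29 genes 11 rose and 5 fell. The kinase gene Mapk3, the JNK genes Mapk8 and Mapk9 and the p38 gene Mapk14 were not called. The largest rise was in Elk3, an ETS factor that works with serum response factor at the Fos promoter. Elk3 stood at 68.9, 56.0 and 87.9 CPM at 5 days, against 4.31, 7.68 and 4.05 CPM at 0 h, a log2 fold change of 3.71 (SE 0.24). Srf and its coactivator Mrtfa rose by 1.02 and 1.37, and the ribosomal S6 kinase Rps6ka3 by 1.73. Mapk11, a p38 kinase gene, rose by 2.26 at a low level (3.12 ± 0.454 CPM at 5 days and 0.631 ± 0.216 CPM at 0 h, SD, n = 3 each). Map3k8 rose by 1.34, a call lost without replicate 2 at 0 h or replicate 3 at 5 days (log2 fold change 1.08 and 1.16). Mapk10, the JNK gene best known from neurons, and Map2k6 fell by 2.33 and 1.28. Map3k1, the called gene of highest mean log CPM over the 6 libraries, fell by 0.90.

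Of 16 tested genes that limit AP-1 activity, 6 rose, 2 fell and 8 were not called (median log2 fold change 0.07). Over all tested genes a similar share, 47.6%, was called, 25.1% higher and 22.5% lower. Dusp1, an immediate early phosphatase that switches off JNK and p38, stood at 17.8, 15.5 and 42.9 CPM at 5 days, against 102.8, 87.1 and 76.1 CPM at 0 h. It fell by 1.78 on the log2 scale (SE 0.30), and by 2.43 without replicate 3 at 5 days. Dusp8 fell by 1.14. The phosphatase genes Dusp4 and Dusp10 rose by 3.36 and 3.40 (Dusp10 by 4.15 without replicate 3 at 0 h). Zfp36 and Zfp36l1, which speed the decay of Fos and other AU-rich transcripts, rose by 2.08 and 3.19. Fbxw7, the ubiquitin ligase subunit that marks Jun for destruction, rose to 76.0 ± 3.37 CPM at 5 days, against 24.7 ± 3.79 CPM at 0 h (SD, n = 3 each).

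Genes known as AP-1 targets in other cells rose for 25 of the 34 tested of 40 listed and fell for 4 (median log2 fold change 3.46). The shares over all tested genes were 25.1% higher and 22.5% lower. Of the 34, 10 (Mmp9, Mmp12, Mmp13, Plau, Plaur, Cdkn2a, Il6, Ereg, Ptgs2 and Mt2) lay under the minimum of the low-count filter in all 0 h libraries and could not have come out lower. Of the other 24, 15 rose and 4 fell. Mmp3, Mmp10 and Areg had no counts at 0 h and were not tested. The gelatinase gene Mmp9 had 2382 counts over the 5 day libraries and 3 over those of 0 h (846.5-fold, 95% exact counting interval 289.3 to 4108), and its fitted log2 fold change of 9.51 was 10.34 without replicate 3 at 0 h. Ezr, which links membrane and actin, had the highest mean log CPM of those called over the 6 libraries and fell by 0.82. The quinone reductase gene Nqo1 fell most, by 1.81 (SE 0.34). Many of these genes are also expressed by leukocytes, whose markers rose in the same libraries.

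**Figure D4:**
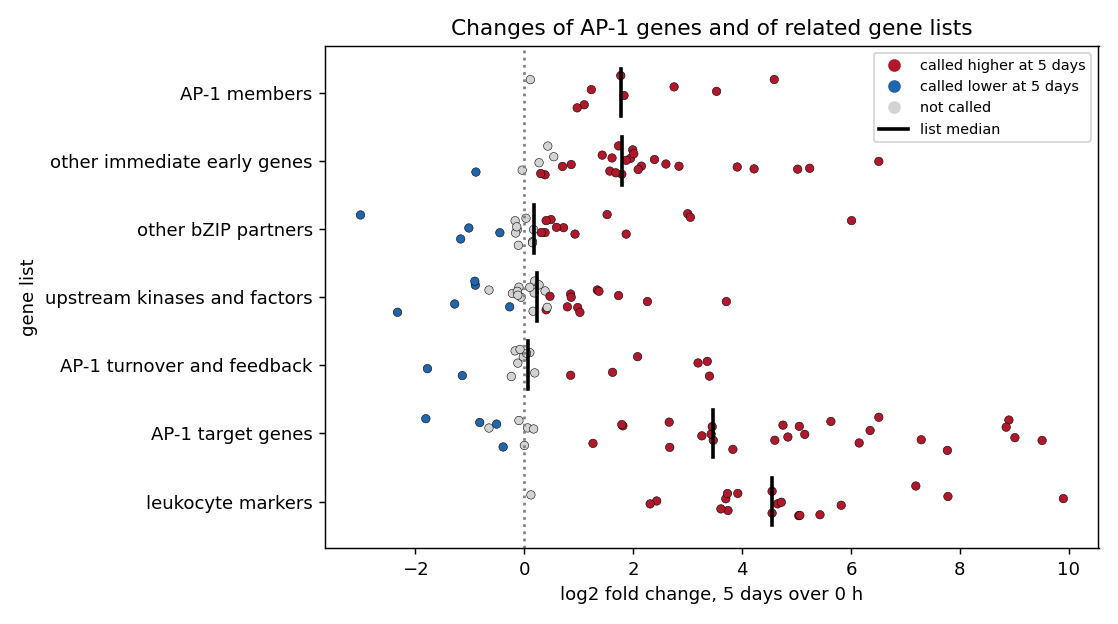
Log2 fold change of 5 days over 0 h for the tested genes of each list, in red where called higher, blue where called lower and grey where not called. Black bars are list medians, at 1.77 for the AP-1 members, 1.79 for other immediate early genes and 0.17 for other basic leucine zipper genes.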

How the data were processed

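RNA was sequenced from pools of 5 lens capsules, 3 libraries at 5 days and 3 at 0 h, with a stranded total RNA kit, per the labels' protocols. The authors deposited raw read counts for each Ensembl gene. The submitters' processing notes name HISAT2, HTSeq, edgeR and the build GRCm39. Tool versions, annotation and strandedness of counting: not given in the sources used here. HTSeq's 5 summary entries (32.26 to 42.55% of reads in a library) stayed out.

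Symbols and lengths came from GENCODE M21 (GRCm38), where 51947 of 56940 identifiers matched. Genes passing filterByExpr (14676) were scaled by TMM and fitted by quasi-likelihood in edgeR 4.0.16 (R 4.3.3), without covariates; the procedure was tested on simulated data. The SE is the log2 fold change over the root of its F statistic, and CPM use effective library sizes. Shares were compared by exact permutation. P-values measure the spread between pools, and counting intervals cover counting error alone.

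The members and gene lists were chosen with earlier results of these data known. All members are named, and from each other list the called gene of highest level, largest rise and largest fall, plus 2-fold changes among regulators. Genes at 0, not called or not tested, and other marker and target genes outside this rule, were named after their values were seen. The filter's minimum was 10 counts at the median library size (1.22 CPM). Lim2 was not analysed here. Some genes that the naming rule covers are not reported here. Alternatives were 3 other scalings, 2 other filters, DESeq2 1.42.0, limma-voom (limma 3.58.1), replicate blocks, each library left out and 3 other lengths.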

Additional observations from a re-analysis of the deposited data

How the results depend on the processing

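The count of AP-1 genes that rose was 8 with each scaling, with each low-count filter and with DESeq2, 6 with limma-voom, and 6 to 8 when single libraries were left out. The count that fell was 0 under each of these. The count that rose at least 2-fold, 7, was 4 to 8 with single libraries left out (4 without replicate 3 at 5 days), an alternative chosen after seeing the data. Over all tested genes, 5768 to 7535 were called under the alternatives, against 6984. Of 135 refits of the 9 tested members, 122 kept direction and call, 12 lost the call (Fosb 4 times, Atf3 8 times) and 1 changed sign, Jund at -0.03 without replicate 3 at 5 days (range -0.03 to 0.24 over single libraries left out). Scaled by total library size, the median log2 fold change of all tested genes was 0.12 rather than -0.01, and 62.9% rather than 52.7% of the calls were upward; 16 rather than 12 upstream genes and 7 rather than 6 turnover genes then rose. The Pax6 call (adjusted p = 0.0483 by edgeR) was lost in 5 of the 6 fits with a library left out. Relative to that shift the members' values did not change direction.

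The difference in the share of Fosl1 within the Fos family, 4.32 percentage points by exon length, was 1.72 with raw counts and 2.12 with coding length. For Junb within the Jun family it was 16.8 by exon length and 20.1 with the length of the longest coding transcript, an alternative chosen after seeing the data. In each case only the length differs by construction.

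Deviations from the group means of same-numbered libraries correlated at 0.039, -0.09 and 0.043. With 3 libraries a side this cannot show whether pools shared mice, and the main test used no pairing. With a replicate block by title number 7 members rose (Atf3 adjusted p = 0.0519 by edgeR), with a block by library name number 6 did (Fosb 0.0502, Atf3 0.216), and the calls over all genes were 6738 and 5768. In the block by library name number, replicate 2 at 0 h and replicate 3 at 5 days had no partner and did not inform the comparison of times. Depth limits Batf3 (26 counts at 5 days, 23 at 0 h), whose log2 fold change was 0.40 without a filter (adjusted p = 0.729 by edgeR).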
